A study of Citrus sinensis with 24 samples.

Results

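A set of 171 genes of sweet orange (Citrus sinensis) went up during fruit development in at least 1 variety and went down in at least 1 other, out of 24166 genes in the table. The genes were found from the read counts of 24 RNA-seq libraries of fruits of 4 varieties. The labels call the fruits of Succari acidless, those of Bingtang low in acid and those of both other varieties, Newhall and Xinhui, acidic. Fruits of field grown trees were taken at 142 and at 45 days post anthesis (DPA), with 3 libraries for each of the 8 groups. Whole fruit tissue is the only tissue named, so cells of several kinds were measured together, and fewer cells of a kind cannot be told apart from less RNA per cell. Counts were scaled to the total of each library as CPM, the share of its reads in units of 1e-06. For each variety the change was log2 of the mean CPM at 142 DPA plus 1 over the mean CPM at 45 DPA plus 1. A gene was kept with a change of 1 or more in at least 1 variety, called a rise here, and of -1 or less in at least 1 other, called a fall. The genes were thus chosen by their mean CPM at both stages, so their changes are given as a description without a test.

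Citrus fruits grow from young fruits with dividing cells to fruits whose juice sacs are enlarged and hold sugars and organic acids in the vacuole. Acid usually builds up in the young fruit and declines toward ripening, and varieties differ widely in how much citrate their juice cells keep. Fruits also hold peel, vascular tissue and, depending on the variety, seeds, and each of these follows its own developmental schedule.

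The libraries held 3757138 to 5890953 reads on the genes that passed a filter on low counts, and 1 read was worth 0.170 to 0.266 CPM, and a gene with 0 reads could lie at up to 0.509 to 0.798 CPM by counting error alone. The 171 genes took 0.275% to 1.00% of the reads of a library. One library stood apart: over the 171 genes, Succari 142 DPA replicate 3 differed from replicates 1 and 2 by 2.01 and 1.87 on average on the log2 scale, while replicates 1 and 2 differed by 0.533. A list of 8 seed maturation genes, among them the oleosin gene Cs2g27550 for a protein that coats seed oil bodies, summed to 3969 and 4011 CPM in Succari 142 DPA replicates 1 and 2, but to 45.0 CPM in replicate 3. The other 22 libraries, replicate 3 included, lay between 21.8 and 75.5 CPM. The oleosin gene itself had 1774, 1920 and 8.40 CPM in the 3 Succari libraries. The 8 genes were grouped for this work from the study's list of genes that follow the ratio of sugar to acid, and that list was chosen on these libraries. They were each detected in all 3 libraries, and 7 of them rose in Succari, while Cs5g24670, a putative lipid transfer protein, changed by -4.01. None of the 8 genes is among the 171, and what this list has to do with the 171 genes was not tested. The main counts that rest on Succari at 142 DPA are therefore also given without replicate 3, a setting chosen after seeing the data.

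The 171 genes were 0.708% of all genes in the table, and 1.76% of the 9700 genes that were past the threshold in any variety. Of these 9700 genes, 5205 had a rise and 4666 a fall somewhere. All 171 passed the filter of 0.3 CPM in at least 3 libraries, as did 20739 genes in all. Their levels over the 24 libraries were mostly low, with a median mean CPM of 7.10 against 12.7 for the genes that passed. They ranged between 0.784 and 235 CPM, with 64 genes under 5 CPM and 11 at 100 CPM or more. Gene IDs of every chromosome prefix occurred among the 171, with shares between 0.560% and 0.912% of the IDs of a prefix. The sources used here pair none of the 171 IDs with a gene name, so no function is given for them. The same list of the study, 72 genes in all, which does pair IDs with homologs, contained 0 of the 171. With 0.708% of all genes among the 171, a list of 72 genes can easily hold 0, so nothing is read from this. Of those 72 genes, 58 had a rise in at least 1 variety, 10 had a fall and 0 had both. Of all 24166 genes in the table, 5205 had a rise, 4666 a fall and 171 both.

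Succari was the variety that parted from the others most often. Of the 171 genes, 118 rose and 21 fell in Succari, against 13.2% and 12.3% of all genes in the table. In Bingtang 40 rose and 95 fell, against 12.9% and 14% of all genes. In Newhall 22 rose and 55 fell, against 14.2% and 12%, and in Xinhui 22 rose and 90 fell, against 10.1% and 14.4%. The median change over the 171 genes was 1.30 in Succari, whereas it was -1.06 in Bingtang, -1.02 in Xinhui and -0.51 in Newhall, while over all genes it was between 0.000 and 0.015 in each variety. Without Succari 142 DPA replicate 3 the median in Succari was 1.63, and 117 of the 171 genes rose and 23 fell there. This is no separate check, since replicates 1 and 2 mostly set the Succari mean that chose the genes. With Succari at 142 DPA from replicate 3 alone the rule found 102 genes, of which 42 rose and 30 fell in Succari. Newhall most often stayed under the threshold, with 94 genes, against 59 in Xinhui, 36 in Bingtang and 32 in Succari.

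**Figure D1:**
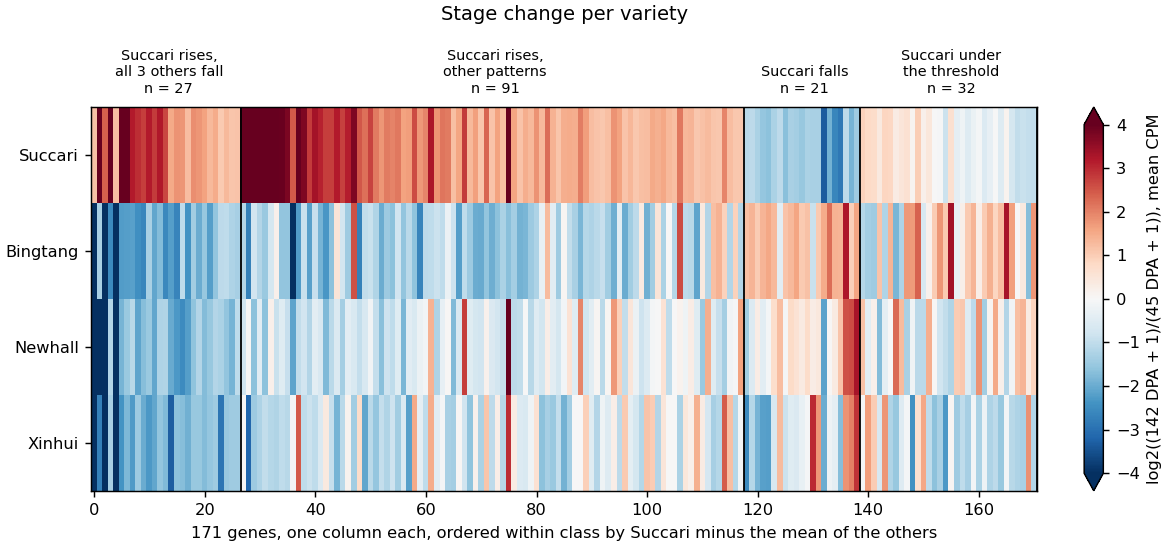
Stage change of each of the 171 genes (columns) in the 4 varieties (rows), as log2 of mean CPM at 142 DPA plus 1 over that at 45 DPA plus 1, with red for higher and blue for lower at 142 DPA and colours ending at 4 and -4. The 27 columns at the left are red in Succari and blue in the other varieties, the next 91 are red in Succari with mixed colours elsewhere, and the 21 genes that fell in Succari are mostly red in Bingtang.

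The most frequent parting was a rise in Succari with a fall in Bingtang, the low acid variety, which 88 genes showed. A rise in Succari went with a fall in Xinhui in 65 genes and with a fall in Newhall in 45. Partings without Succari reached at most 22 genes. A rise in Bingtang went with a fall in Xinhui in 22 genes and with a fall in Newhall in 9, and a rise in Newhall or Xinhui went with a fall in Bingtang in 10 and 14 genes. The opposite of the main parting, a rise in Bingtang with a fall in Succari, occurred in 18 genes. Newhall and Xinhui, both labelled acidic, parted least, with 9 genes that rose in Newhall and fell in Xinhui and 2 the other way round.

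The same order held when partings were read against all genes past the threshold in both varieties of a pair. For Succari and Bingtang, 106 of 4305 such genes (2.46%) moved in opposite directions. The share was 1.61% for Succari and Xinhui, 1.11% for Succari and Newhall, 0.807% for Bingtang and Xinhui, 0.387% for Bingtang and Newhall, and 0.25% for Newhall and Xinhui. Without Succari 142 DPA replicate 3, the shares of Succari were 3.27% with Bingtang, 2.18% with Xinhui and 1.71% with Newhall. Between any 2 varieties the great majority of genes with a large stage change therefore moved the same way. Without Succari the rule found 60 genes, whereas it found 96 without Bingtang, 126 without Xinhui and 148 without Newhall.

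**Figure D2:**
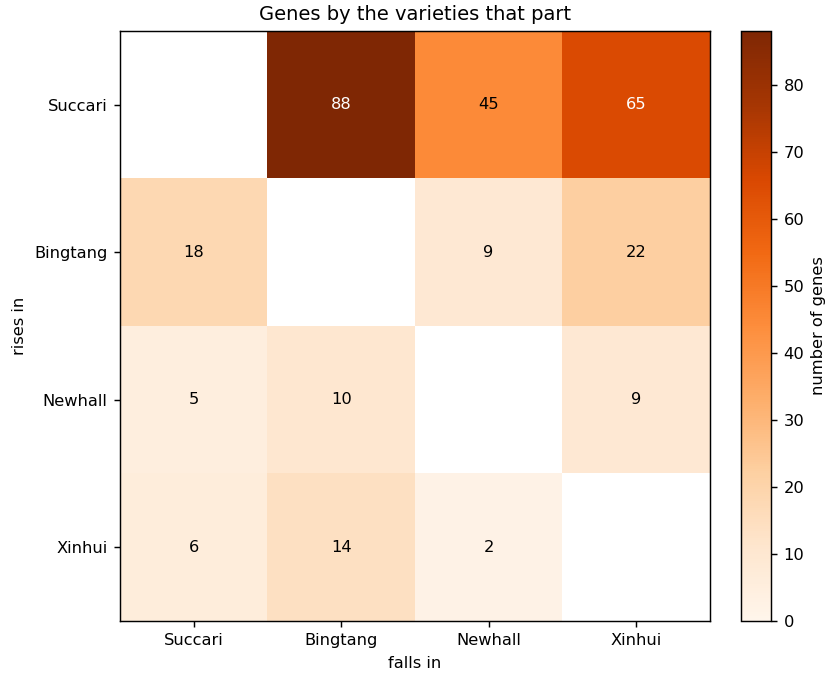
Number of the 171 genes that rose in the variety of the row and fell in the variety of the column, where a gene can count in several squares. The row of Succari holds the highest counts, 88 with Bingtang, 65 with Xinhui and 45 with Newhall, and the lowest count is 2, for a rise in Xinhui with a fall in Newhall.

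Each variety can rise, fall or stay under the threshold, and 27 of the 50 combinations with at least 1 rise and 1 fall occurred. The most frequent, with 27 genes, was a rise in Succari with a fall in all 3 other varieties. Next came a rise in Succari with a fall in Bingtang alone, with 23 genes, and with a fall in Xinhui alone, with 17. The mirror pattern of a fall in Succari with a rise in all 3 others was seen in 2 genes. In 84 genes 1 variety rose and 1 fell while the others stayed under the threshold, and 34 genes were past the threshold in all 4 varieties. Succari was the sole riser in 97 genes and the sole faller in 14, and Bingtang was the sole faller in 44 and Xinhui in 39. Without Succari 142 DPA replicate 3, 27 of the 171 genes rose in Succari and fell in all 3 others, and Succari was the sole riser in 96. The choice of the 171 genes favours these counts, so they are no separate check.

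Most partings were modest in size. The largest rise of a gene had a median of 1.61 and reached 6.48, and its largest fall had a median of -1.45 and reached -6.90. The smaller of these sizes, which the rule holds at 1 or more, had a median of 1.28 and a maximum of 4.09, and reached 2 in 18 genes, each of which rose in Succari. In 30 genes it was 1.1 or less. Just inside the threshold, 1 gene had a rise of 3.269 in Succari and a fall of -1.001 in Bingtang, and another 3.748 in Succari and -1.002 in Xinhui. Just outside lay a gene at 1.062 in Bingtang and -0.998 in Succari, and one at 1.129 in Bingtang and -0.996 in Xinhui. In all, 46 genes outside had a smaller size of 0.9 or more.

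The replicates of 142 DPA did not all follow the mean of their group. For the 118 genes that rose in Succari, the change of a single library against the mean of 45 DPA had a median of 2.04 in replicate 1, 1.96 in replicate 2 and -0.02 in replicate 3. Replicates 1 and 2 were each at 1 or more in 113 of the 118 genes. Replicate 3 was at 1 or more in 30 genes, within 1 of the 45 DPA level in 67, and at -1 or less in 21. It was at or below the 45 DPA mean in 61 of 118 genes (51.7%), against 6.91% of all 3196 genes that rose in Succari. In 23 genes all 3 libraries were at 1 or more, and with no share over all genes beside this count, nothing is read from it. The group mean of these genes at 142 DPA was thus mostly set by replicates 1 and 2, the libraries with the high seed maturation list.

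No other variety had a library so often at or below the 45 DPA mean, and Bingtang replicate 1 came nearest. It was so in 11 of the 40 genes that rose in Bingtang, and replicate 3 in 6, against 1.28% and 0.866% of all 3119 genes that rose in Bingtang. Among the Bingtang libraries of 142 DPA, though, replicate 2 differed most from the others. Over the 171 genes its mean log2 difference was 0.695 to replicate 1 and 0.579 to replicate 3. Replicates 1 and 3 differed by 0.449. For the 22 genes that rose in Newhall, replicate 1 had a lower median change, 1.07, than replicates 2 and 3, with 2.10 and 1.65. For the 22 genes that rose in Xinhui the 3 medians lay between 1.53 and 1.60, and no library was at or below the 45 DPA mean. Among falls, a rule on group means leaves little room for a library above the 45 DPA mean, so nothing is read from their evenness. Of the 95 genes that fell in Bingtang 1 had a library, replicate 2, at or above the 45 DPA mean. This was seen in 0.0593% of all 3373 genes that fell in Bingtang. None did among the 21, 55 and 90 genes that fell in Succari, Newhall and Xinhui, nor among all genes that fell there.

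**Figure D3:**
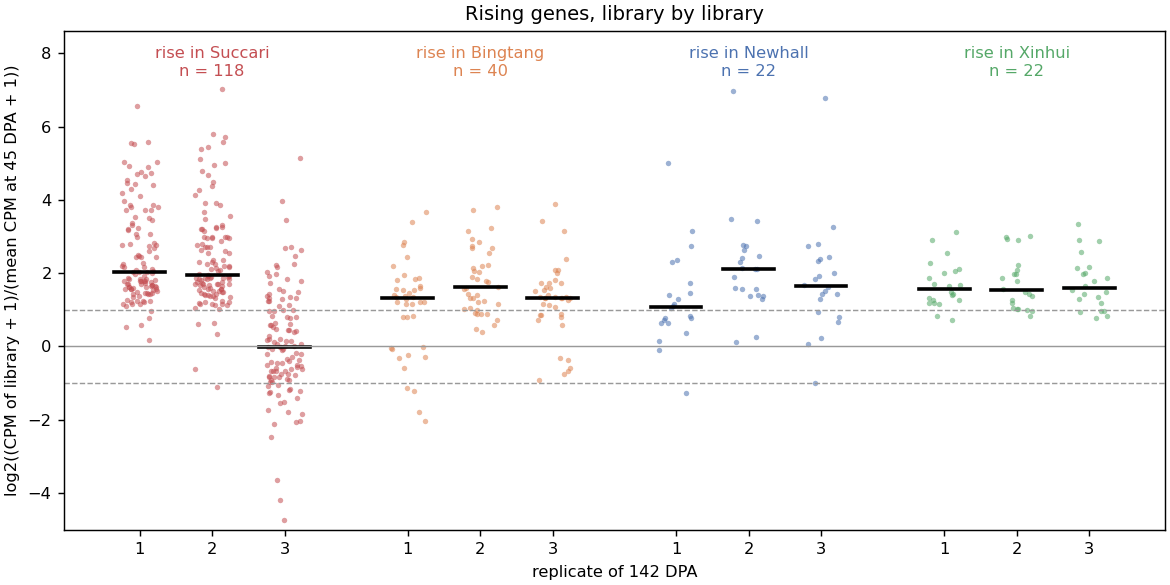
Change of each 142 DPA library against the mean of 45 DPA of its variety, as log2 of CPM plus 1 over mean CPM plus 1, for the genes that rose in that variety, with a point for each gene, a black bar at the median and dashed lines at 1 and -1. In Succari the medians are 2.04, 1.96 and -0.02, and in the other varieties every library has a median above 1.

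A stricter reading asked that all 3 libraries of 142 DPA lie above all 3 of 45 DPA in a variety that rose, and below them in one that fell. In both directions together, with the threshold of the rule kept, 89 of the 171 genes met this. They were 0.368% of all genes in the table, and by construction no other gene could meet it. With changes of any size 92 of the 171 met it, against 5.61% of all genes, a share that the choice of the genes raises. The fall was met by 166 genes and the rise by 92, against 19.2% and 20.1% of all genes. Rises in Succari met it in 48 of 118 genes, compared with 90.5% of all genes that rose in Succari. The other directions met it more often, with 29 of 40 rises in Bingtang, 18 of 22 in Newhall and 22 of 22 in Xinhui, against 97.8%, 98% and 99.1% of all genes that rose there. Falls in Succari met it in 21 of 21 genes, against 99.9% of all genes that fell. Leaving out Succari 142 DPA replicate 3 makes this easier for every gene, and 159 of the 171 then met it with changes of any size, against 8.75% of all genes.

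The parting of Succari from Xinhui depended most on these libraries. With Succari at 142 DPA taken from replicates 1 and 2, the rule found 211 genes, 170 of them among the 171, and a rise in Succari went with a fall in Bingtang, Xinhui and Newhall in 104, 83 and 61 genes. With replicate 3 alone it found 102 genes, 88 of them among the 171, and these partings numbered 31, 6 and 12. The genes that rose in Succari then numbered 42 and those that fell 30, against 142 and 39 with replicates 1 and 2. Among the genes whose libraries did not overlap in both directions, 37 rose in Succari and fell in Bingtang, 11 fell in Xinhui and 8 in Newhall. A rise in Succari with a fall in Bingtang was the most frequent parting under each of these settings, and the order of the others was not kept.

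The edgeR quasi-likelihood test, which weighs the spread between replicates, was set beside the rule. It used the same contrasts, so its calls say nothing more about how the genes were chosen. With a Benjamini-Hochberg limit of 0.05 and a change of 2-fold or more, it called 220 of 20739 genes (1.06%) higher at 142 DPA in 1 variety and lower in another, 142 of them among the 171. Of the remaining 29, 16 were called only higher, 10 only lower and 3 neither. In turn 78 genes were called in opposite directions by edgeR without meeting the rule. Without Succari 142 DPA replicate 3 it called 349 genes, 158 of them among the 171.

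The variety with the largest rise and that with the largest fall were compared for each gene at each stage, in the same edgeR fit. Both were picked from the same libraries that chose the genes, so these counts are a description and nothing is read from them. The riser was higher at 142 DPA in 167 of the 171 genes, against 20.5% of all genes tested for their own extreme varieties. At 45 DPA the riser was lower in 31 genes, against 4.36%, and higher in 2, against 0.333%. The median log2 ratio of riser to faller was 2.81 at 142 DPA and -0.54 at 45 DPA, and at 142 DPA it was 3.05 without Succari replicate 3. By their means, 136 genes crossed, with the riser above at 142 DPA and below at 45 DPA, and in 34 genes the riser was above at both stages. In 155 genes the gap at 142 DPA was larger than that at 45 DPA.

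Libraries held out gave a measure that the choice of genes from the other libraries did not fix. The rule was applied to the libraries of 2 replicate numbers, and the direction was then read in the libraries of the remaining number. With number 1 held out, 125 of 151 chosen genes (82.8%) were above 0 in the chosen riser and below 0 in the chosen faller, against 19% of all genes for their own extreme varieties. With number 2 held out these were 153 of 169 genes (90.5%), against 20.5%. With number 3 held out they were 119 of 230 genes (51.7%), against 16.9%. The shares of all genes include genes with few reads and genes whose varieties all moved the same way, so they are only a rough background.

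The shortfall in number 3 lay mostly in genes chosen for a rise in Succari. Of 142 such genes, 54 (38%) kept both directions in the libraries of number 3, and in 37 the Succari library was at -1 or less. Of the 88 genes chosen for a rise in another variety, 65 (73.9%) kept both. With number 1 held out the order was reversed, with 75 of 78 (96.2%) for a rise in Succari and 50 of 73 (68.5%) for others. With number 2 held out these were 97 of 105 (92.4%) and 56 of 64 (87.5%). A change past the threshold in both directions recurred in 89, 86 and 42 genes with numbers 1, 2 and 3 held out, which was 58.9%, 50.9% and 18.3% of the genes chosen, against 0.894%, 0.823% and 0.377% of all genes.

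The 27 genes that rose in Succari and fell in all 3 other varieties showed the split between the Succari libraries most clearly. Their summed level in Succari at 142 DPA was 2819 and 2973 CPM in replicates 1 and 2, and 106 CPM in replicate 3, against 332 to 361 CPM at 45 DPA. In the other varieties the sum was 22.8 to 46.7 CPM at 142 DPA, against 331 to 409 CPM at 45 DPA. So replicate 3 lay below the 45 DPA libraries of Succari, as the 142 DPA libraries of the other varieties lay below theirs. In replicate 3, 24 of the 27 genes were at or below the 45 DPA mean and 15 had a change of -1 or less. All 3 libraries at 1 or more was seen in 0 of the 27. Libraries that did not overlap in both directions were seen in 1, against 0.368% of all genes.

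For the 91 other genes that rose in Succari, replicate 3 lay between the stages. Their summed level at 142 DPA was 5690, 5831 and 3410 CPM in the 3 Succari replicates, against 974 to 989 CPM at 45 DPA. The median over genes of log2(CPM + 1) was 4.84, 4.52 and 2.45 at 142 DPA, against 1.89 to 2.15 at 45 DPA. In Bingtang the sum was 768 to 842 CPM at 142 DPA, against 1456 to 1699 CPM at 45 DPA. Of these 91 genes 77 changed below 0 in Bingtang, 71 in Newhall and 63 in Xinhui. Libraries did not overlap in both directions in 49, against 0.368% of all genes, and the choice of the genes favours these counts.

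The 21 genes that fell in Succari had similar sums in its 3 libraries of 142 DPA. Their summed level was 348, 370 and 381 CPM in Succari at 142 DPA, against 1006 to 1045 CPM at 45 DPA. In Bingtang it was 1650 to 1830 CPM at 142 DPA, against 533 to 630 CPM at 45 DPA, and in Newhall 1049 to 1260 CPM against 660 to 682 CPM. The stages overlapped in none of these 3 varieties, while in Xinhui the sum was 365 to 476 CPM at 142 DPA, against 429 to 451 CPM at 45 DPA. Single genes could be uneven in Bingtang. Cs2g20590 stood there at 7.82, 229.2 and 15.2 CPM at 142 DPA, against a mean of 29.4 CPM at 45 DPA. Of the 21 genes, 19 changed above 0 in Bingtang. Libraries did not overlap in both directions in 16 of them, against 0.368% of all genes, and the choice of the genes favours both counts. Succari replicate 3 stood with replicates 1 and 2 here, with median changes of -1.47, -1.44 and -1.40 in replicates 1 to 3.

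The 32 genes under the threshold in Succari parted among the other 3 varieties. Their median change was 1.02 in Bingtang, 0.02 in Newhall and -1.03 in Xinhui. A rise in Bingtang with a fall in Xinhui alone was the most frequent pattern, with 10 genes, followed by 7 with a rise in Bingtang and a fall in Newhall alone and 7 with a rise in Newhall and a fall in Xinhui alone. Libraries did not overlap in both directions in 23 of the 32, against 0.368% of all genes, and the choice of the genes favours this count.

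**Figure D4:**
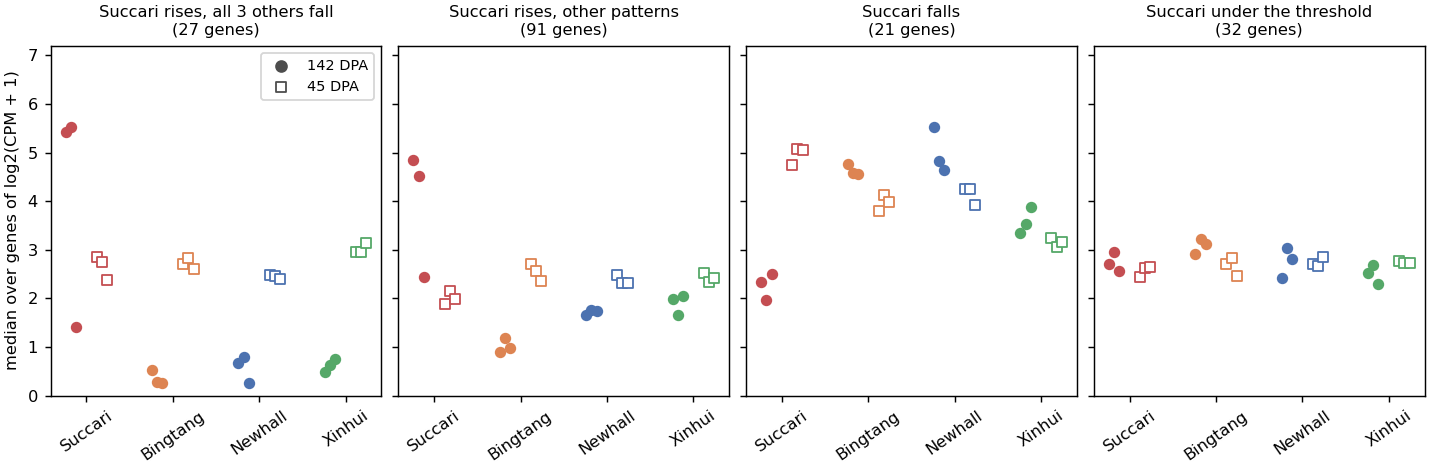
Median over genes of log2(CPM + 1) in each library, with filled circles for 142 DPA left of open squares for 45 DPA, in the 4 varieties and for 4 classes of the 171 genes by their change in Succari. In the class of 27 genes, Succari at 142 DPA has values of 5.43, 5.53 and 1.42, and in the class of 21 genes the 3 Succari libraries of 142 DPA lie together at 1.97 to 2.50.

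Genes are shown by ID where their libraries did not overlap in both directions. Each gene was assigned to the variety of its largest rise and to that of its largest fall, and the 2 with the largest opposition, the smaller of both sizes, are given for each variety and direction. Cs9g02520 rose in Succari and fell in the other varieties by the rule. The edgeR quasi-likelihood test did not call its falls in Newhall and Xinhui, with adjusted p of 0.168 and 0.187. It stood at 362.0, 240.9 and 9.70 CPM in Succari at 142 DPA, against 9.09, 6.29 and 4.92 CPM at 45 DPA. In Bingtang it stood at 1.30, 0.210 and 0.195 CPM at 142 DPA, which were 6, 1 and 1 reads, against 10.5, 8 and 6.11 CPM at 45 DPA. The change was 4.72 in Succari, whereas it was -2.55 in Bingtang, -1.32 in Xinhui and -1.17 in Newhall. Without Succari 142 DPA replicate 3 the change in Succari was 5.28. All 4 varieties started alike, with means of 6.77 to 8.20 CPM at 45 DPA, and Succari replicate 3 was only just above the highest library of 45 DPA.

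In orange1.1t02220 the 3 Succari libraries agreed. Its values were 19.2, 16.3 and 17.5 CPM in Succari at 142 DPA, against 1.35, 3.24 and 2.46 CPM at 45 DPA. They were 1.30, 1.47 and 0.779 CPM in Bingtang at 142 DPA, against 17.8, 13.3 and 8.67 CPM at 45 DPA. Succari and Bingtang thus exchanged levels between the stages, with changes of 2.48 and -2.71. In Xinhui it averaged 28.04 ± 1.90 CPM at 142 DPA and 16.3 ± 1.46 CPM at 45 DPA (SD, n = 3 each), a change of 0.75. In Newhall the change was -0.94.

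Cs1g08810 moved the other way in the same pair of varieties. It reached 176.7, 141.1 and 136.8 CPM in Bingtang at 142 DPA, against 26.5, 33.7 and 34.3 CPM at 45 DPA, a change of 2.23. In Succari it stood at 18.5, 11.2 and 13.8 CPM at 142 DPA, against 54.2, 60.2 and 55 CPM at 45 DPA, a change of -1.89. The 2 acidic varieties kept their levels, which differed between them. Newhall averaged 55.7 ± 7.11 CPM at 142 DPA and 54.2 ± 6.01 CPM at 45 DPA, and Xinhui 12.3 ± 1.78 CPM and 14.3 ± 0.631 CPM (SD, n = 3 each), with changes of 0.04 and -0.20.

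Cs6g09480 fell in Succari and Xinhui and rose in Bingtang. Its values were 18.7, 20.6 and 21 CPM in Bingtang at 142 DPA, against 5.55, 5.45 and 7.49 CPM at 45 DPA. In Xinhui they were 0.795, 0.722 and 0 CPM at 142 DPA, or 4, 4 and 0 reads, against 6.32, 6.79 and 4.88 CPM at 45 DPA. The changes were 1.56 in Bingtang, -2.22 in Xinhui, -1.64 in Succari and -0.08 in Newhall. At 45 DPA the 4 means lay between 5.58 and 6.16 CPM, and at 142 DPA they were spread between 0.506 and 20.1 CPM.

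Cs2g21750 rose in both acidic varieties and fell in Succari. In Newhall it stood at 45.6, 61.6 and 61.7 CPM at 142 DPA, against 7.46, 8.26 and 9.58 CPM at 45 DPA, and in Xinhui it averaged 31.7 ± 2.70 CPM and 7.18 ± 2.11 CPM (SD, n = 3 each). In Succari it had 2, 1 and 0 reads at 142 DPA, at most 0.349 CPM, against 2.71, 3.85 and 3.34 CPM at 45 DPA. Bingtang lay between them, with 17.4, 7.78 and 5.26 CPM at 142 DPA, against 4.36, 4.26 and 5.52 CPM at 45 DPA, so that its libraries overlapped. The changes were 2.60 in Newhall and 2.00 in Xinhui, whereas Bingtang had 0.96 and Succari -1.87.

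Cs6g15680 rose in Newhall and fell in both Bingtang and Xinhui. Its values were 138.8, 330.7 and 289.8 CPM in Newhall at 142 DPA, against 57.9, 54.2 and 44.4 CPM at 45 DPA. In Bingtang they were 10.6, 33.4 and 9.16 CPM at 142 DPA, against 79.0, 56.0 and 59.9 CPM at 45 DPA. In Xinhui they were 29.0, 71.5 and 43.4 CPM at 142 DPA, against 149.8, 133.2 and 134.2 CPM at 45 DPA. Replicate 2 was the highest library of 142 DPA in all 4 varieties, where the replicate number is only the order of the libraries within a group. The changes were 2.26 in Newhall, -1.82 in Bingtang, -1.52 in Xinhui and 0.32 in Succari.

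Cs3g07330 and orange1.1t03687 had their largest fall in Newhall. Cs3g07330 stood at 6.76, 14.1 and 6.77 CPM in Xinhui at 142 DPA, against 0.766, 1.02 and 0.977 CPM at 45 DPA. In Newhall it had 2, 5 and 7 reads at 142 DPA, or 0.394, 0.928 and 1.35 CPM, against 2.67, 4.69 and 4.26 CPM at 45 DPA. The changes were 2.41 in Xinhui, 1.95 in Succari, 0.93 in Bingtang and -1.37 in Newhall, so that Newhall alone was below 0.

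In orange1.1t03687 the rise was in Bingtang, with 38.2, 27.8 and 26.3 CPM at 142 DPA, against 2.18, 2.04 and 1.97 CPM at 45 DPA, a change of 3.37. Newhall had 2.37, 2.60 and 3.47 CPM at 142 DPA, against 6.04, 6.95 and 10.1 CPM at 45 DPA, a change of -1.19. Bingtang was the lowest variety at 45 DPA and the highest at 142 DPA. Succari was uneven, with 3.49, 10.1 and 21.3 CPM at 142 DPA, against 8.90, 5.88 and 6.67 CPM at 45 DPA, and its change of 0.63 was -0.07 without replicate 3. Here, and in Cs3g07330 and Cs7g22830, replicate 3 was the highest Succari library of 142 DPA. Only Cs3g07330 of them rose in Succari by the rule, and replicate 3 was the highest in 10 of the 118 genes that did.

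Cs7g22830 rose in Bingtang and fell in Xinhui. Its values were 73.4, 71.3 and 49.7 CPM in Bingtang at 142 DPA, against 20.8, 19.9 and 17.1 CPM at 45 DPA, a change of 1.70. In Xinhui they were 3.18, 5.42 and 3.64 CPM at 142 DPA, against 27, 27 and 24 CPM at 45 DPA, a change of -2.41. The 45 DPA means of the 4 varieties lay between 19.3 and 26.0 CPM. In Succari the libraries of 142 DPA were at 8.73, 20.3 and 50.0 CPM and in Newhall at 9.27, 16 and 36.8 CPM, on both sides of their 45 DPA levels. The change of Cs7g22830 in Succari was 0.12, and -0.70 without replicate 3. The next ID in the table, Cs7g22820, is also among the 171, with changes of 1.19 in Bingtang, 1.11 in Succari and -1.34 in Xinhui. Adjacent IDs occurred for 6 of the 171 genes (3.51%), against 1.39% of all genes with one of the 171 next to them. The columns used are headed as numbers of unique reads, and no source used here says how reads of such neighbours were assigned.

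Cs3g17810 and Cs2g10630 had their largest rise in Xinhui and their largest fall in Bingtang. Cs3g17810 stood at 8.15, 15.0 and 17.2 CPM in Xinhui at 142 DPA, against 2.87, 2.89 and 3.32 CPM at 45 DPA. In Bingtang it stood at 2.61, 6.10 and 3.51 CPM at 142 DPA, against 15.6, 15.8 and 15.2 CPM at 45 DPA. The changes were 1.84 in Xinhui and -1.71 in Bingtang, and Succari, at -0.95, lay just under the threshold for a fall.

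Cs2g10630 stood at 94.0, 100.7 and 75.8 CPM in Xinhui at 142 DPA, against 32.2, 34.3 and 32.6 CPM at 45 DPA. In Bingtang it stood at 7.82, 15.3 and 6.43 CPM at 142 DPA, against 50.3, 42.4 and 43.9 CPM at 45 DPA. Succari went with Xinhui, at 74.2, 88.3 and 113.7 CPM at 142 DPA, against 48.8, 37.3 and 43.2 CPM at 45 DPA, and its replicate 3 was the highest of its libraries. The changes were 1.42 in Xinhui, 1.08 in Succari, -0.48 in Newhall and -2.10 in Bingtang, and that in Succari was 0.90, under the threshold, without replicate 3.

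**Figure D5:**
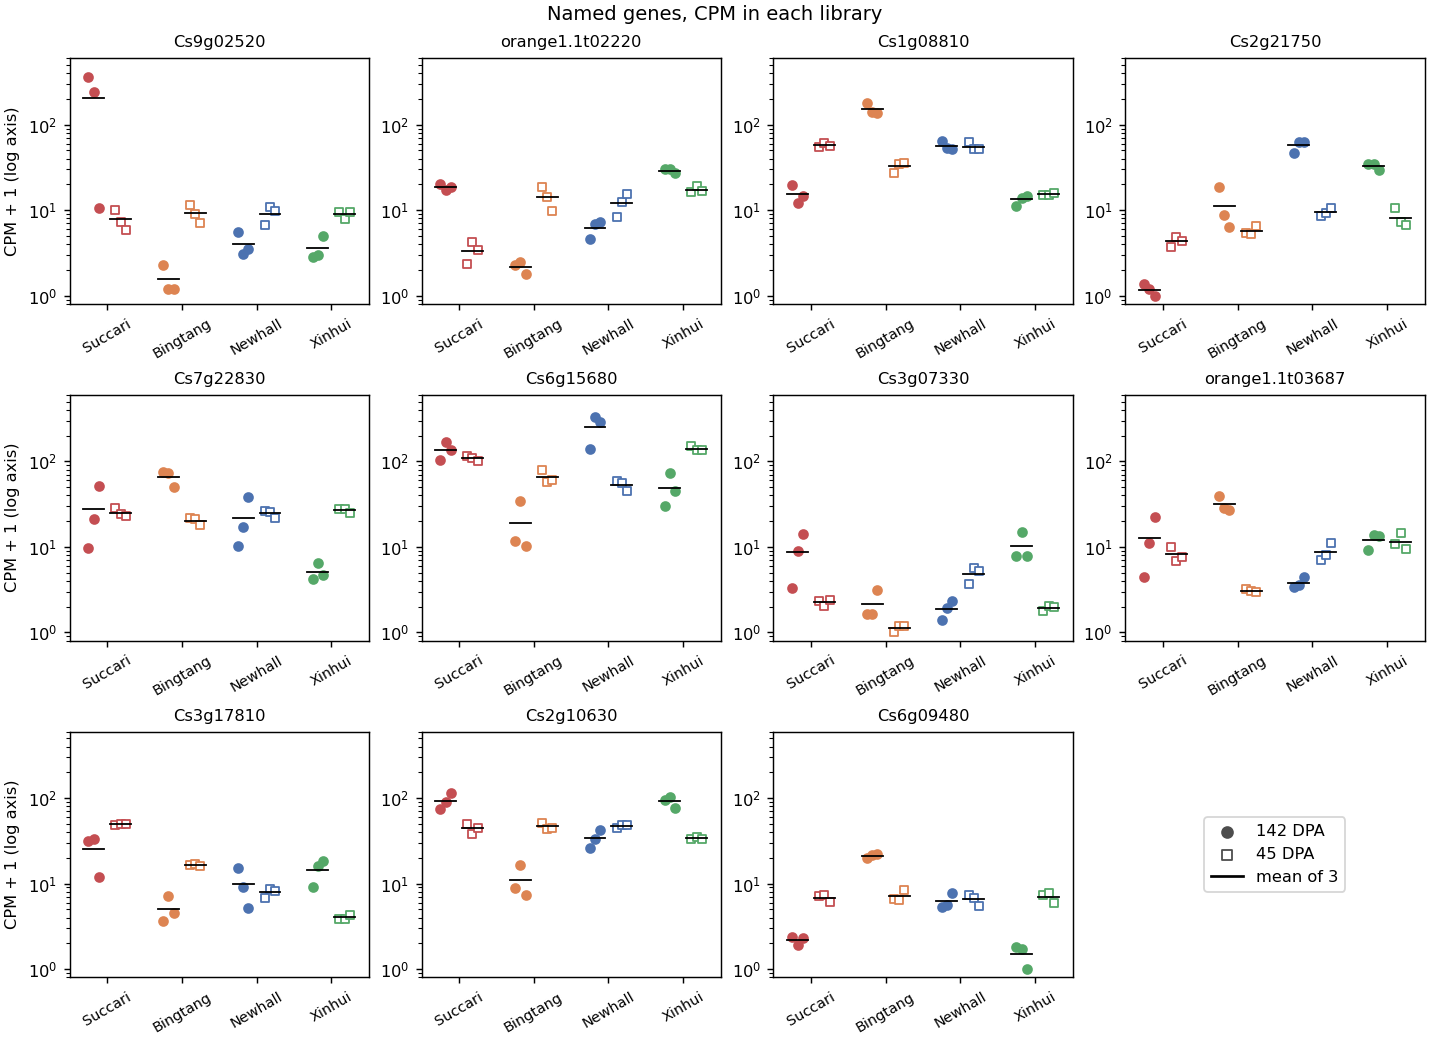
CPM plus 1 on a log axis in each library for the 11 genes named by the rule, with filled circles for 142 DPA left of open squares for 45 DPA and a bar at the mean of 3 replicates. In Cs9g02520 the Succari libraries of 142 DPA lie at 362.0, 240.9 and 9.70 CPM, while in Cs1g08810 the 3 libraries of each group lie close together.

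A pair of genes was added after their values were seen, to show the split between Succari libraries in genes of the class of 27. Cs1g21350 stood at 144.6, 192.9 and 0.747 CPM in Succari at 142 DPA, against 22.2, 20.5 and 20.0 CPM at 45 DPA. In Bingtang it had 1, 0 and 0 reads at 142 DPA, in Newhall 0, 0 and 1 and in Xinhui 0, 1 and 7, against means of 38.6, 20.0 and 57.0 CPM at 45 DPA. Replicate 3, with 4 reads, thus lay in the range of the other varieties at 142 DPA and far below the 45 DPA libraries of Succari. orange1.1t05126, the gene with the greatest value for the smaller of its largest rise and largest fall, had 306, 535 and 0 reads in Succari at 142 DPA, against 11, 2 and 4 reads at 45 DPA. In Newhall it had 1, 0 and 4 reads at 142 DPA, against 80, 41 and 160 reads at 45 DPA. Its change of 4.63 in Succari therefore rests on replicates 1 and 2, and its change in Newhall was -4.09.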

How the data were processed

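RNA-seq was made from fruits of 4 sweet orange varieties at 142 and 45 DPA, with 3 replicates per group that the study calls biological, and 24 libraries in all. The authors deposited counts of reads per gene, headed as numbers of unique reads. These counts are whole numbers without normalization. The total of each library is in the column heading and equalled the column sum in all 24 libraries. For the aligner, the strand setting and the genome build, the answer is not given in the sources used here. CPM was computed from these totals. The genes and lists were chosen with earlier results of these data known. edgeR 4.0.16 in R 4.3.3 fitted 8 groups in one model with TMM scaling over the 20739 genes that reached 0.3 CPM in 3 or more libraries, with Benjamini-Hochberg adjustment over these. Genes were named for each variety as the 2 with their largest rise there and the 2 with their largest fall there that had the largest opposition (the smaller of these sizes), among genes whose libraries did not overlap in both directions, since 0 of 24166 IDs matched the reference table. Alternatives used other pseudocounts, thresholds, scalings and filters, the median, DESeq2 1.42.0, limma 3.58.1, the replicate number as a block, and each library left out in turn. Scripts, in Python 3.11.15 (numpy 2.4.6, matplotlib 3.10.9, pandas 2.3.3), were tested on simulated data. No sequences were used here.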

Additional observations from a re-analysis of the deposited data

Results flagged for a closer look

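All 11 genes named by the rule had every library of 142 DPA above every library of 45 DPA in 1 variety and below in another, which is how they were chosen, so the difference between the stage changes was not tested. The change in Succari minus that in Bingtang was 7.28 for Cs9g02520 and 5.19 for orange1.1t02220 on the log2 scale. The change in Bingtang minus that in Succari was 4.12 for Cs1g08810. In Newhall minus Succari it was 4.47 for Cs2g21750, and in Newhall minus Bingtang 4.07 for Cs6g15680. In Bingtang minus Xinhui it was 4.11 for Cs7g22830 and 3.78 for Cs6g09480. In Bingtang minus Newhall it was 4.56 for orange1.1t03687, and in Xinhui minus Newhall 3.77 for Cs3g07330. In Xinhui minus Bingtang it was 3.55 for Cs3g17810 and 3.52 for Cs2g10630.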

How the results depend on the processing

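The number of genes moving in opposite directions depended on the pseudocount and the threshold of the rule. A pseudocount of 0.1 CPM gave 790 genes and one of 5 CPM gave 57, and thresholds of 1.5 and 2 gave 52 and 18, against 171. A higher threshold or a larger pseudocount keeps fewer genes by construction, and for the other settings here the cause was not tested. Succari at 142 DPA from replicate 3 alone gave 102 genes, and Bingtang, Newhall and Xinhui without Succari gave 60, both settings chosen after seeing the data. TMM and median-of-ratios scaling gave 166 and 169, and leaving out each library in turn 152 to 211. Opposite calls by edgeR numbered 123 with limma and 191 to 349 with a library left out, where 349 came without Succari 142 DPA replicate 3, against 220, and DESeq2 gave 211. Among the 171 genes they numbered 119 to 158 with a library left out, 117 with limma and 145 with DESeq2, against 142. Genes whose libraries did not overlap in both directions numbered 89 to 154 with a library left out, a setting chosen after seeing the data, where 154 came without Succari 142 DPA replicate 3, and fewer libraries make this easier for every gene. With the replicate block the edgeR counts were 222 and 141. Deviations of same-numbered libraries correlated with r between -0.179 and 0.155. The replicate numbers are the order of the libraries within a group and do not all match the numbers in the library titles. Whether libraries were paired by title was therefore not tested. Of 198 settings of the 22 changes of named genes, 191 stayed within 1 SD of the replicates, 7 moved, all with a pseudocount of 0.1 CPM, and 0 reversed. The SD is that of single libraries at both stages combined. Leaving out 1 of 3 libraries can hardly move a change that far, so those settings show little about stability. Without Newhall 45 DPA replicate 3, orange1.1t03687 changed by -0.97 in Newhall, which is under the threshold, against -1.19. Header totals put the median change of tested genes in Newhall at 0.110, against 0.000 with TMM, and no change past the threshold among the 171 changed its sign under either scaling.

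Depth limits the low genes, since 64 of the 171 averaged under 5 CPM.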
